A study of Mus musculus with 4 samples.

Results

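Umad1 and Glcci1 are neighbouring genes on mouse chromosome 6 that are transcribed in the same direction. They were taken as a pair by their rows in the count table, 2 of 21936 genes, and were selected on the contrast of the same 4 libraries, for counts that were higher with the TSSK2 antibody than with mouse IgG. That difference is therefore given as a description, without a test. The libraries came from germ cells of adult C57BL/6 mouse testes that were cross-linked with paraformaldehyde, sonicated and fractionated by low-speed centrifugation, and the pellet fraction was used for RNA immunoprecipitation. TSSK2-IP (2 libraries) used an antibody against TSSK2, a testis-specific kinase found in the late chromatoid body of elongating spermatids, and control IgG-IP (2 libraries) used mouse IgG. The paper describes the TSSK2-IP libraries as strand-specific and made without removal of ribosomal RNA, and its methods do not say this of the IgG-IP libraries. No genotype or drug treatment differed between the 4 libraries. Nothing in the labels says that the replicates came from separate mice, so the spread between them may be technical. An antibody pulls down whatever RNA stays with the granules. A higher value can reflect more of an RNA in the cells that carry TSSK2 or closer attachment to it, among other sources. These cannot be told apart here, and no input library was among the 4.

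UMAD1 is a small protein named for its UMA domain, which it shares with UBAP1, MVB12A and MVB12B. Those proteins are alternative subunits of ESCRT-I, one of the ESCRT complexes that sort membrane proteins into multivesicular endosomes and cut membrane necks. GLCCI1, also called FAM117C, is named for its induction by glucocorticoids, and its closest relatives are FAM117A and FAM117B.

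In the GENCODE vM21 annotation of GRCm38, Umad1 (ENSMUSG00000089862) lies on the plus strand at chr6:8259288-8459470, with 8 transcripts, and Glcci1 (ENSMUSG00000029638) lies downstream at chr6:8509600-8597548, with 6 transcripts. The genes are 50129 bases apart. A further annotated gene, Gm45062 (ENSMUSG00000107705), runs from chr6:8259450-8597480 on the same strand and covers both. Its single transcript, annotated as a target of nonsense-mediated decay, starts 162 bases after Umad1, takes 4 of its 11 exons from Umad1 and 7 from Glcci1, and splices directly from one gene into the other. The sequences at the splice site where these transcripts part are shown because they are what tells the RNAs of the pair from the joined RNA. They were read from the GRCm38.p6 genome, plus strand, with the 30 bases before the junction in lower case and the 30 bases after it in capitals.
Umad1, exon continuing: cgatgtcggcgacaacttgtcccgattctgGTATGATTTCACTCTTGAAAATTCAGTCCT
Umad1, spliced to its distal last exon: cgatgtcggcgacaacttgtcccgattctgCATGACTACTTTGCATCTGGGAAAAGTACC
Gm45062, spliced into Glcci1: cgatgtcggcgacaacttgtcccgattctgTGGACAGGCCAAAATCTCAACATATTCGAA
Glcci1, first exon spliced to the next: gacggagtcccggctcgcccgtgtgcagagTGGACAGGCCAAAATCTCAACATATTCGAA
The first 3 share the Umad1 exon that ends at position 8427185 and differ in what follows: the same exon read on from 8427186, the last exon of Umad1 from 8457448, or the Glcci1 exon from 8537817. The last sequence joins that same Glcci1 exon to the end of the first exon of Glcci1, at position 8510319. All of these bases are coding in at least 1 annotated transcript of Umad1 or Glcci1.

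The genes of the pair start from separate regions. Umad1 starts 115 bases from Rpa3, the smallest subunit of the single-strand DNA binding protein RPA, which is transcribed in the opposite direction. The 114 bases between both starts, chr6:8259174-8259287, and the 250 bases before Glcci1, chr6:8509350-8509599 (the latter from the RefSeq promoter table, GRCm38.p6), are shown because the RNAs of both genes were higher in TSSK2-IP. Capitals mark matches, on either strand, to the CCAAT box (CCAAT), the GC box (GGGCGG), the TATA box (TATAAA), the cyclic AMP response element (TGACGTCA) or the palindromic glucocorticoid response element.
Between the starts of Rpa3 and Umad1: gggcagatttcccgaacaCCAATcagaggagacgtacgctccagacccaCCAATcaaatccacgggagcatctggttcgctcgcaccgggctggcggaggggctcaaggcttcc
Before the start of Glcci1: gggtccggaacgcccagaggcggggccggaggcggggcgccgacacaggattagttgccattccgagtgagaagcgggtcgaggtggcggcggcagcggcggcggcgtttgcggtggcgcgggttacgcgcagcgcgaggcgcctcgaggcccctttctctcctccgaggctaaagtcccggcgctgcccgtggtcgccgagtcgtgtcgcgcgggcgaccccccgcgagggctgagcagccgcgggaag
The printed stretch before Umad1 held 2 matches to CCAAT. The 250 bases before the RefSeq start of Umad1, chr6:8259038-8259287, which reach into Rpa3, held the same 2 and 1 match to the GC box. In windows of that length before 32851 RefSeq transcript starts, CCAAT was found in 33.8%. The GC box was found in 32.7%, the TATA box in 12.4%, the cyclic AMP response element in 1.55% and the glucocorticoid response element in 0.00913%. None of the 5 motifs was found in the printed window before the first start of Glcci1, and the window before its second RefSeq start, chr6:8519808-8520057, held 2 matches to the TATA box. The first Glcci1 window was 74.4% G and C with 40 CpG dinucleotides and the second 39.2% with 3, against medians of 52.4% and 6 over all windows, and the Umad1 window held 21 CpG dinucleotides. A match or its absence describes these letters alone.

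Library totals were 4158034 and 4491749 counts for TSSK2-IP and 9858941 and 3938922 counts for IgG-IP, and 1 count was worth 0.156 to 0.230 CPM (counts scaled to the same library size) after TMM normalization. Between replicates, the log2 difference of the 6631 genes with a mean CPM of at least 20 had an SD of 0.22 in TSSK2-IP and 0.89 in IgG-IP, so the IgG-IP libraries stood further apart. All 7 spermatid markers and all 5 spermatocyte markers were detected, as the labelled tissue requires. Summed spermatid markers were at 3226 and 2919 CPM in TSSK2-IP and at 4622 and 3414 CPM in IgG-IP, and summed spermatocyte markers at 1125 and 1008 CPM and at 3047 and 1293 CPM, so that both sums were lower in TSSK2-IP. Summed markers of Sertoli cells were at 44.2 and 34.4 CPM in TSSK2-IP and 13.7 and 35.2 CPM in IgG-IP, and those of Leydig cells at 35.4 and 34.6 CPM and 14.4 and 33.3 CPM. Lists for spermatogonia, macrophages, peritubular and endothelial cells, and erythroid cells gave sums of 3.04 to 42.3 CPM that overlapped between the groups. By gene, the fold change was positive for all 4 tested Sertoli and all 4 tested Leydig markers. It was positive for 3 and negative for 4 spermatid markers, and positive for 2 and negative for 3 spermatocyte markers. No marker was at 0 in all libraries and none passed the test. Their part in the values below was not tested.

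Umad1 was detected in every library and was higher in both TSSK2-IP libraries. Its counts were 206 and 276 in TSSK2-IP replicates 1 and 2, and 38 and 40 in IgG-IP replicates 1 and 2. As TMM-normalized CPM, Umad1 was at 42.7 and 52.5 in TSSK2-IP and at 5.93 and 9.19 in IgG-IP. The groups did not overlap, and the lower TSSK2-IP value was 4.65-fold above the higher IgG-IP value. The means were 47.6 ± 6.94 and 7.56 ± 2.31 CPM (SD, n = 2 each), and the fitted log2 fold change (log2FC) was 2.66 (SE 0.44), or 6.34-fold.

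Glcci1 had fewer counts and a larger ratio between the groups. Its counts were 142 and 121 in TSSK2-IP, and 17 and 13 in IgG-IP. Glcci1 was at 29.4 and 23.0 CPM in TSSK2-IP and at 2.65 and 2.99 CPM in IgG-IP. These groups did not overlap either, and the closest pair of libraries differed 7.71-fold and the most distant 11.1-fold. For Umad1 the most distant pair of libraries differed 8.86-fold. The means for Glcci1 were 26.2 ± 4.53 and 2.82 ± 0.237 CPM (SD, n = 2 each), and the log2FC was 3.21 (SE 0.48), or 9.27-fold. All 4 IgG-IP counts of the pair lay above the 3 counts taken as the floor of a library.

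**Figure D1:**
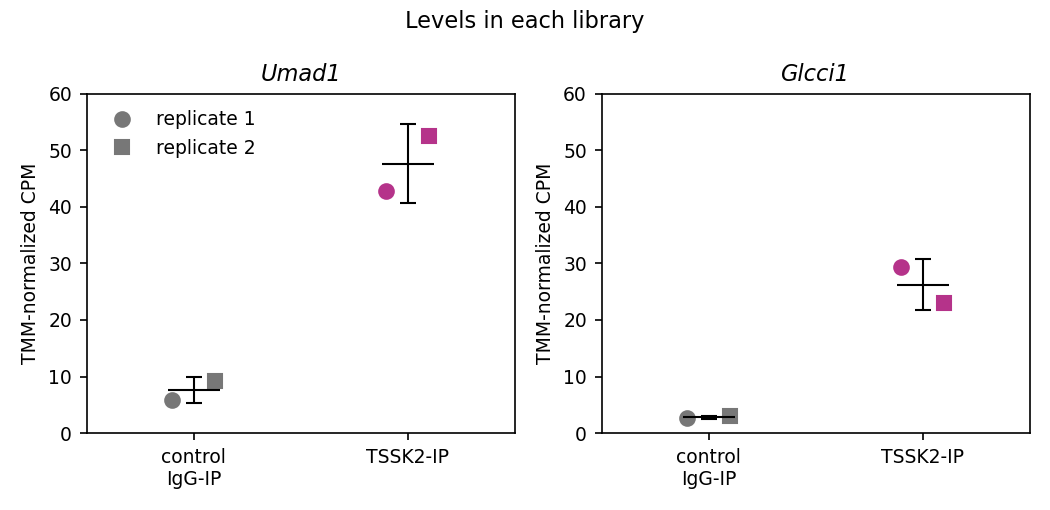
TMM-normalized CPM of Umad1 (left) and Glcci1 (right) on a linear axis from 0 for control IgG-IP and TSSK2-IP. Circles are replicate 1, squares replicate 2, horizontal lines means and bars SD (n = 2). For both genes the TSSK2-IP libraries, at 42.7 and 52.5 CPM for Umad1 and 29.4 and 23.0 CPM for Glcci1, lie above both control libraries.

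Over all genes, 102 of 14722 tested genes, 0.693%, were called higher in TSSK2-IP at a log2FC of at least 1 and an adjusted p of at most 0.05 in edgeR's quasi-likelihood test after Benjamini-Hochberg adjustment, and 0% were called lower. Both members were among the 102, which is how they came to be chosen. Glcci1 had rank 62 by log2FC and Umad1 rank 129 among all tested genes. Non-overlapping libraries with TSSK2-IP above were common, at 27.3% of tested genes, as were those with TSSK2-IP below, at 21.6%, whereas 4.01% had both TSSK2-IP libraries at least 2-fold above both IgG-IP libraries, as both members had.

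Since the pair was chosen for passing the thresholds, its calls under other settings describe the settings and are no further test. Without TSSK2-IP replicate 1 neither gene passed, and without TSSK2-IP replicate 2 Glcci1 passed and Umad1 did not, while both passed when either IgG-IP library was left out; in each of these fits the group of 2 supplies the spread for the lone library. Neither passed with upper-quartile normalization, which called 20 genes in all, or with DESeq2 once genes at 0 in all libraries had been dropped, which called 6. The log2FC and SE of both genes were the same in that fit as with DESeq2 on the full table, where both passed. Both also passed with DESeq2's size factors, without a filter, with at least 10 counts in every library and with the replicate block. In the test against a 2-fold change Glcci1 passed and Umad1 did not. The fold changes themselves stayed within 2.43 to 2.93 for Umad1 and 3.01 to 3.37 for Glcci1 on the log2 scale when libraries were left out one at a time.

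**Figure D2:**
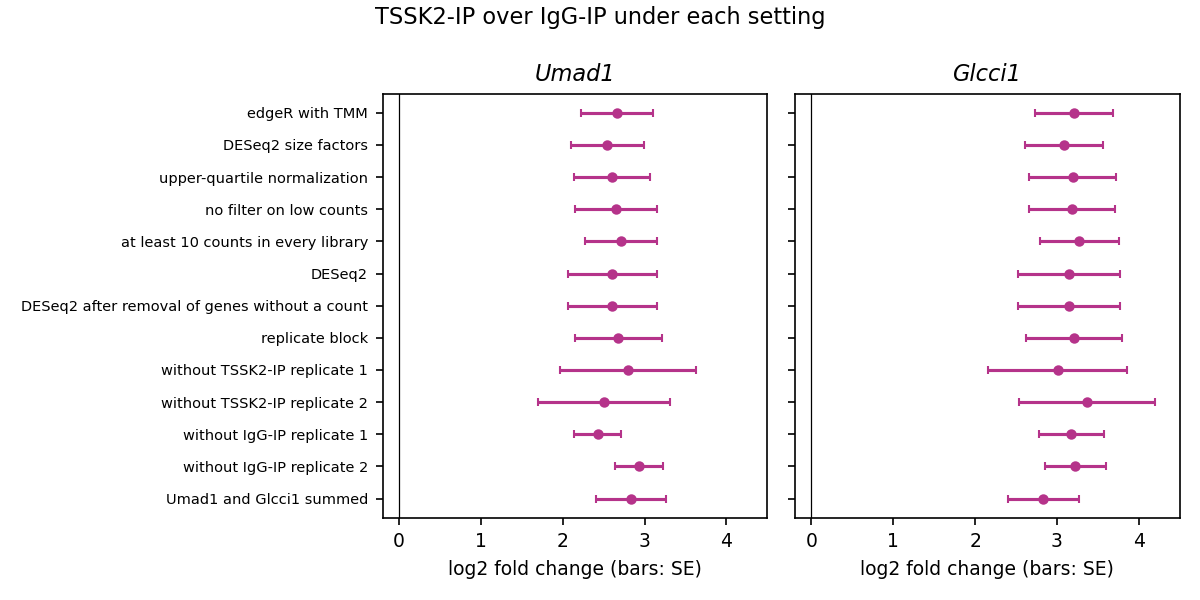
log2FC of Umad1 (left) and Glcci1 (right), TSSK2-IP over IgG-IP, under each processing setting, with bars for the standard error and a vertical line at 0. Every point lies above 2, and the standard errors are widest where 1 TSSK2-IP library was left out.

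The balance between the genes was not used to choose them. Glcci1 made up 142 of the 348 counts of the pair in TSSK2-IP replicate 1, a share of 40.8% (exact 95% interval 35.6 to 46.2), and 121 of 397 in replicate 2, a share of 30.5% (26.0 to 35.3). In IgG-IP it made up 17 of 55, a share of 30.9% (19.1 to 44.8), and 13 of 53, a share of 24.5% (13.8 to 38.3). These intervals cover counting error only. The share in TSSK2-IP replicate 2 lay just under that in IgG-IP replicate 1, so the groups overlapped. The mean shares were 35.6 ± 7.30% and 27.7 ± 4.51% (SD, n = 2 each), a difference of 7.92 percentage points, with p = 0.667 in a two-sided exact permutation test that cannot go below 0.333 with 2 libraries a group. A shift in the balance of the pair was thus not detectable at this size. Summed, the pair was at 72.1 and 75.5 CPM in TSSK2-IP and 8.58 and 12.2 CPM in IgG-IP, closer between the TSSK2-IP replicates than either gene alone.

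Gm45062 had 0 counts in all 4 libraries, although its exons are also exons of the pair. All of its 5842 exon bases are shared with Umad1 or Glcci1. In the whole table, 133 of the 140 annotated genes that share every exon base with another gene on their strand were at 0 in all libraries, 95%, and the highest total among the other genes of that class was 24 counts. Of the 15312 genes that share no exon base, 2.47% were at 0. Of the 31 genes overlapped throughout by a gene on the opposite strand only, 0 were at 0. The table thus holds almost no counts for sequence that 2 genes of 1 strand share, while overlap across strands left counts in place. For Gm45062 a count of 0 therefore says nothing about whether the joined RNA was there.

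If the same counting held for the pair, only reads that lie outside the exons of Gm45062 could be given to Umad1 or Glcci1. Umad1 shares 430 of its 5018 exon bases with Gm45062, and 4588 bases (91.4%) lie outside. The larger of these stretches are its last exon, 2023 bases at chr6:8457448-8459470, and the 1582 bases at chr6:8427186-8428767 that follow the printed splice site, both mostly untranslated sequence. Glcci1 shares 5412 of its 7756 exon bases, and 2344 bases (30.2%) lie outside. Of these, 1241 bases are at chr6:8591666-8592906, a stretch that lies between exons of Gm45062. It falls inside the last exon block of Glcci1, which spans 6004 bases over all its transcripts. Another 720 bases are the first exon of Glcci1 at chr6:8509600-8510319. In the last block, the 4574 bases at chr6:8592907-8597480 are shared. The counts of Glcci1 therefore stand for a smaller part of the gene than those of Umad1, and the table does not say where in either gene they fell.

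**Figure D3:**
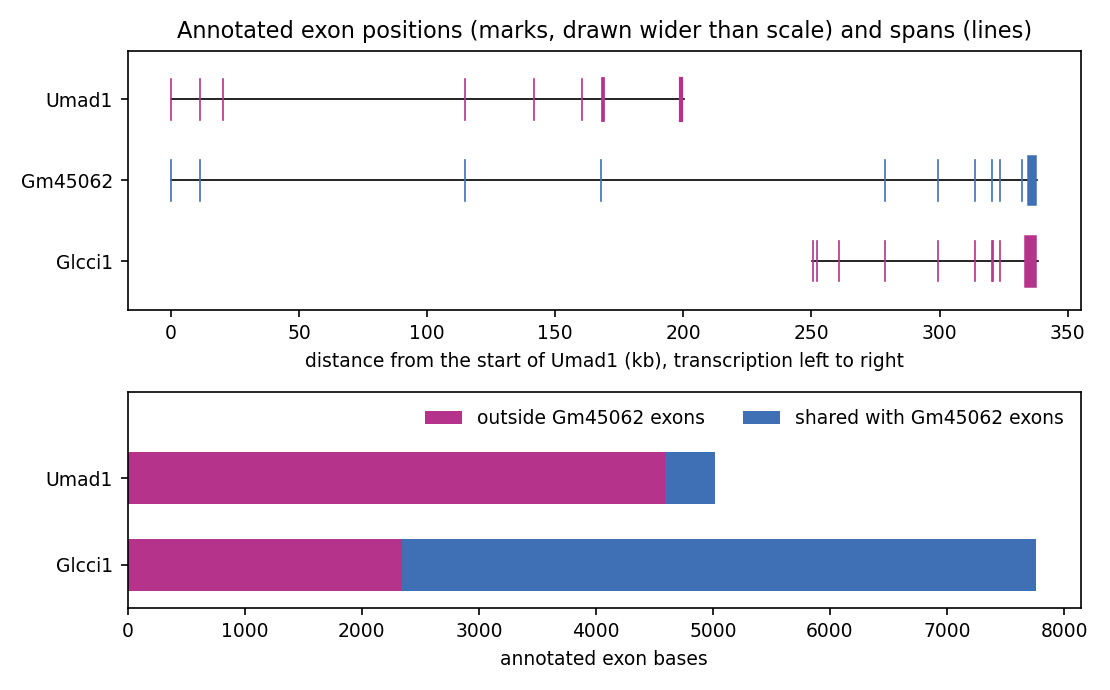
Top, annotated exons (marks, drawn wider than scale) and spans (lines) of Umad1, Gm45062 and Glcci1 against the distance in kb from the start of Umad1. Bottom, exon bases of each gene outside Gm45062 exons and shared with them: 4588 outside and 430 shared for Umad1, 2344 outside and 5412 shared for Glcci1.

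Levels per base depend on which bases are counted as the length of each gene. Counting only bases outside the exons of Gm45062 raises Glcci1 relative to Umad1 by the same factor in every library. That factor is set by the annotated lengths alone. In TSSK2-IP replicate 1 it switched the order of the genes. Per kb of all exon bases, Umad1 was at 8.51 and 10.5 CPM in TSSK2-IP and 1.18 and 1.83 CPM in IgG-IP, and Glcci1 was at 3.80 and 2.97 CPM and at 0.342 and 0.385 CPM, below Umad1 in every library. Per kb outside the exons of Gm45062, Umad1 was at 9.31 and 11.4 CPM in TSSK2-IP and 1.29 and 2.00 CPM in IgG-IP, and Glcci1 at 12.6 and 9.82 CPM and at 1.13 and 1.27 CPM. On that scale Glcci1 was the higher of the genes in TSSK2-IP replicate 1 and the lower in the other 3 libraries. Neither scale changes the ratio between groups.

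Few tested genes are as short of exon bases of their own as Glcci1: 33 of 14710 genes with annotation, 0.224%, had the same share or less. With protocadherin, olfactory receptor and vomeronasal receptor genes left out, 75 tested genes had under 50% of their exon bases free of other genes on their strand, and 5 of these (6.67%) were called higher in TSSK2-IP, namely Glcci1, Ctnnd1, Adnp, Nupl1 and Rbm4. Of 989 genes with 50 to under 100% free, the class of Umad1, 14 (1.42%) were called, and of 13394 genes with all exon bases free, 43 (0.321%). The median log2FC of these classes was 0.88, 0.07 and -0.04, against -0.03 over all 14458 genes counted here. The share called and the median were thus highest in the class with the fewest exon bases of its own. These classes were set up after the values of the pair were seen, Glcci1 is among those counted, and the reason for the difference was not tested.

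Neighbouring genes were counted in the same way. Among 6876 pairs of adjacent tested protein-coding genes on the same strand, without those families, both genes were called higher in 5 pairs (0.0727%): Umad1 and Glcci1, Rbm4 and Rbm14, Adnp and Dpm1, Pura and Igip, and Igip and Cystm1. The first 3 of these pairs were among the 71 pairs that, like Umad1 and Glcci1, are bridged by another annotated gene sharing exon bases with both (4.23%). The last 2 were among 6794 pairs that are not bridged (0.0294%). The log2FC was at least 1 in both genes in 7 bridged pairs (9.86%) and in 127 pairs that are not bridged (1.87%). Umad1 and Glcci1 differed by 0.55 in log2FC, and 39.7% of all 7088 adjacent pairs, families included, differed by less, with a median of 0.71. The difference within the pair thus lay between the lower quartile of 0.34 and the median of all adjacent pairs. This count too was made after the values were seen, and the bridged pairs include Umad1 and Glcci1, which were chosen for being called. Glcci1, Adnp and Rbm4 are also among the called genes with under 50% of their exon bases free. The counts by free bases and by bridging are therefore not separate observations. Both called pairs that are not bridged contain Igip.

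No other gene around the pair was called. Of the 9 other genes in the table within 1 Mb, 7 were tested, with log2FC from -0.87 to 2.03 and a median of 0.31, against -0.02 over all tested genes, and 0 passed the test in either direction, also with DESeq2. Mios, a subunit of the GATOR2 complex of amino acid sensing, ends 23.0 kb before Umad1 and was the nearest tested gene upstream. Its counts were 238 and 176 in TSSK2-IP and 656 and 214 in IgG-IP, with a log2FC of -0.87 (SE 0.46, adjusted p = 0.412 in edgeR's quasi-likelihood test after Benjamini-Hochberg adjustment). Ica1, which encodes a BAR domain protein of secretory vesicles, lies on the opposite strand and is the next gene of the table after Glcci1. Its counts were 875 and 917 in TSSK2-IP and 971 and 588 in IgG-IP, with a log2FC of 0.31 (SE 0.48). Rpa3, across the shared start region from Umad1, had 8 and 2 counts in TSSK2-IP and 0 and 3 in IgG-IP and was too low to test.

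Farther away, Nxph1 and C1galt1 had an unadjusted p under 0.05, as 8.34% of all tested genes did in this direction. Nxph1 encodes neurexophilin 1, a ligand of neurexins, and had 71 and 53 counts in TSSK2-IP and 9 and 21 in IgG-IP. Its log2FC was 2.03 (SE 0.62, adjusted p = 0.213 in edgeR's quasi-likelihood test after Benjamini-Hochberg adjustment). C1galt1, which builds the core of O-linked glycans, had 233 and 373 counts in TSSK2-IP and 187 and 114 in IgG-IP, with a log2FC of 1.11 (SE 0.41, adjusted p = 0.284 in the same test). For both of these genes the groups did not overlap in CPM.

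**Figure D4:**
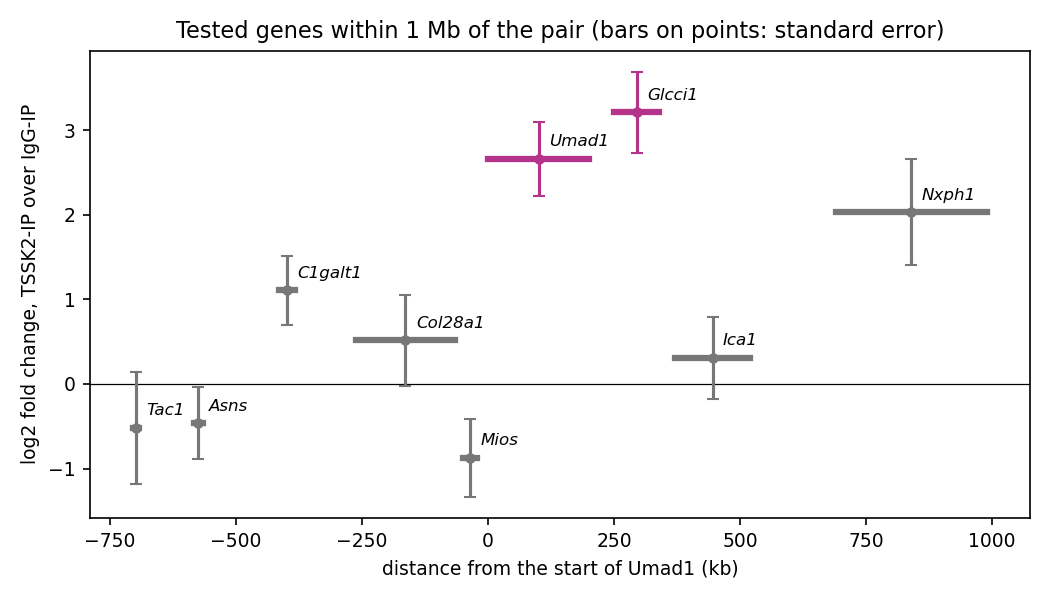
log2FC, TSSK2-IP over IgG-IP, of the tested genes within 1 Mb of the pair against the distance from the start of Umad1 in kb. Thick horizontal lines are gene spans and vertical bars standard errors. Umad1 at 2.66 and Glcci1 at 3.21 lie above all 7 other genes, of which Nxph1 at 2.03 is the next and Mios at -0.87 the lowest.

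The relatives of Glcci1 had fold changes of opposite sign. Fam117a had 151 and 152 counts in TSSK2-IP and 54 and 59 in IgG-IP, with non-overlapping CPM of 31.3 and 28.9 against 8.43 and 13.6. Its log2FC was 1.46 (SE 0.43, adjusted p = 0.179 in edgeR's quasi-likelihood test after Benjamini-Hochberg adjustment). Fam117b had 277 and 271 counts in TSSK2-IP and 1272 and 324 in IgG-IP, where IgG-IP replicate 1 was far above the rest, and its log2FC was -1.33 (SE 0.51, adjusted p = 0.307 in the same test). Neither paralog passed the test with all libraries. Without IgG-IP replicate 1 the log2FC was 1.21 for Fam117a and -0.39 for Fam117b. Without IgG-IP replicate 2 the values were 1.77 for Fam117a and -1.93 for Fam117b. In both fits the lone control library is assumed to vary like the others, so calls from them are not read here.

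No ESCRT gene was called with all libraries. Of 33 listed genes, 29 were tested, 11 with a positive and 18 with a negative log2FC, and the median was -0.24. None passed in either direction, 2 had an unadjusted p under 0.05 with higher values and 2 with lower values, against 8.34% and 4.89% of all tested genes, and DESeq2 also called none. Of the other ESCRT-I subunits with the UMA domain, Mvb12b had a log2FC of 1.02 (SE 0.48), Ubap1 of -0.25 (SE 0.50) and Mvb12a of -0.59 (SE 0.58). Of the core subunits, Tsg101, which recognises ubiquitin, was at -0.42 and Vps28 at -0.52. The VPS37 subunits had values of 1.27 for Vps37b, 0.12 for Vps37c and -0.11 for Vps37a, while Vps37d and Ubap1l were too low to test. Vps37b was at 52.4 and 47.2 CPM in TSSK2-IP and 7.96 and 33.8 CPM in IgG-IP, with an adjusted p of 0.349 in edgeR's quasi-likelihood test after Benjamini-Hochberg adjustment.

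Among the other ESCRT genes, the smallest p-values with higher values belonged to Ist1, an ESCRT-III regulator (log2FC 0.90), Stam of ESCRT-0 (0.70) and Chmp7 of ESCRT-III (0.63). Those with lower values belonged to Vps4a, the ATPase that takes ESCRT-III apart (-1.47), Hgs of ESCRT-0 (-1.48) and Chmp4c of ESCRT-III (-1.42). For Vps4a the CPM were 98.9 and 107 in TSSK2-IP and 428 and 144 in IgG-IP, and for Hgs 116 and 109 against 483 and 145, so that IgG-IP replicate 1 gave most of both differences.

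The glucocorticoid response genes, listed because Glcci1 is named for that response, held 13 tested genes of 15, 10 with a positive and 3 with a negative log2FC, and a median of 0.29, against 7243 positive and 7479 negative values and a median of -0.02 over all tested genes. None passed the test in either direction, and 3 had an unadjusted p under 0.05, all with higher values, against 8.34% of all tested genes with higher values. The glucocorticoid receptor gene Nr3c1 had 82 and 63 counts in TSSK2-IP and 97 and 55 in IgG-IP, with overlapping CPM and a log2FC of 0.06 (SE 0.43). The 3 genes were Mt2, a metallothionein, with a log2FC of 1.38 (SE 0.41), Fkbp5, a co-chaperone of the receptor, with 1.28 (SE 0.43), and Dusp1, a phosphatase of MAP kinases, with 1.12 (SE 0.46). Their adjusted p-values were 0.20 for Mt2, 0.26 for Fkbp5 and 0.336 for Dusp1 in edgeR's quasi-likelihood test after Benjamini-Hochberg adjustment. The negative values were -0.38 for Ddit4, an inhibitor of mTORC1, -0.13 for the kinase Sgk3 and -0.01 for Mt1.

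**Figure D5:**
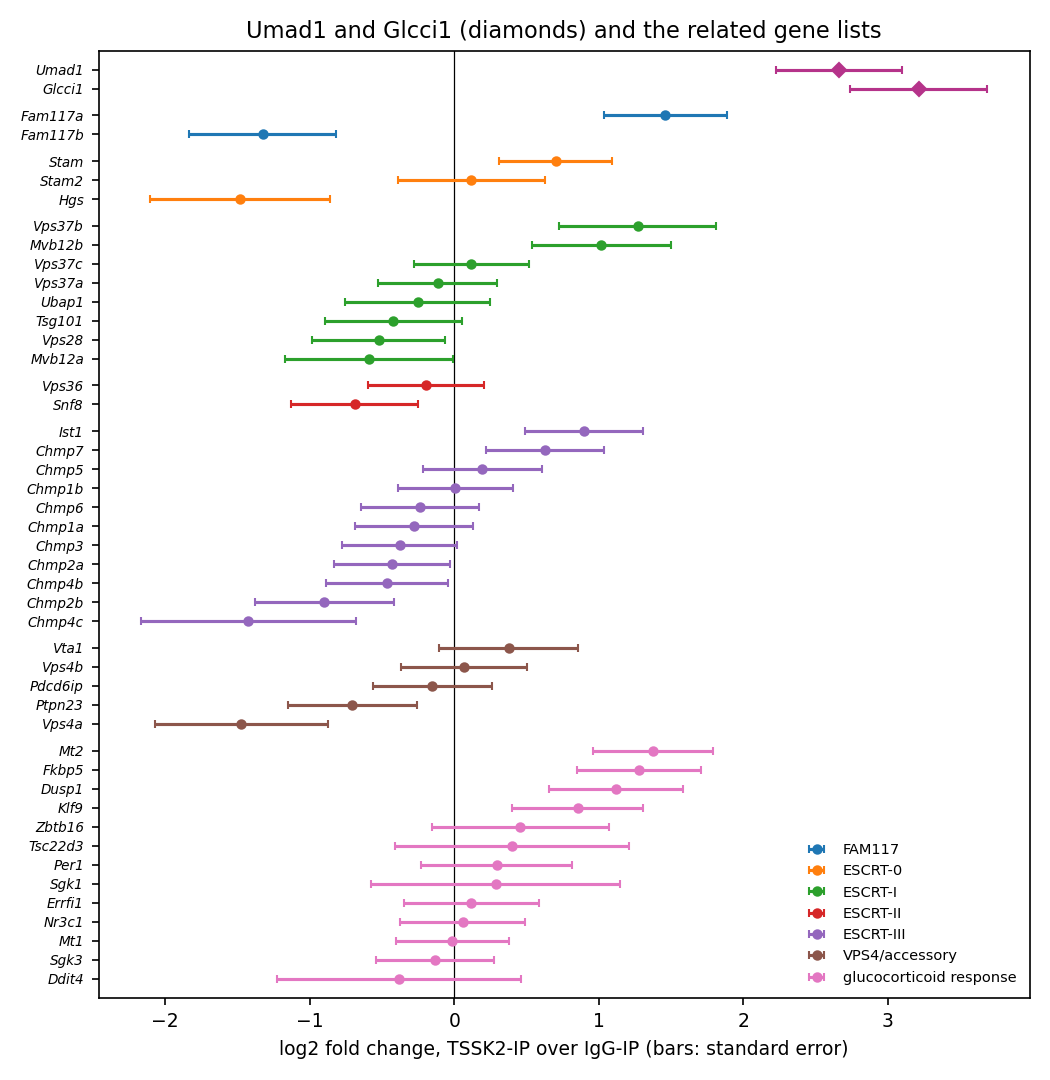
log2FC, TSSK2-IP over IgG-IP, with standard errors, of Umad1 and Glcci1 (diamonds) and of the tested FAM117, ESCRT and glucocorticoid response genes (circles, coloured by group). Umad1 at 2.66 and Glcci1 at 3.21 lie to the right of every other gene drawn, of which Fam117a at 1.46 is the highest and Hgs at -1.48 the lowest.

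The genes most like each member over the 4 libraries lay elsewhere in the genome. Likeness was the distance between the log2 CPM of genes, each centred on its own mean, over 4 libraries and 14721 other genes. The pair was chosen on the contrast of these same libraries. Genes close to it were therefore largely bound to be higher in TSSK2-IP, and the median distances serve as a scale only. The log2 CPM carry a prior count of 2, which pulls genes with few counts towards smaller differences. For Umad1 the closest were Rbm12b2 (distance 0.143), the olfactory receptor gene Olfr930 (0.174), Mafg, a small Maf transcription factor (0.176), the septin gene Sept2 (0.229) and Rab33b, a Golgi GTPase (0.254), against a median distance of 2.71. For Glcci1 they were the olfactory receptor gene Olfr1287 (0.123), H2-DMa, a chaperone of antigen presentation (0.232), Olfr979 (0.313), the zinc-finger gene Zbtb32 (0.348) and Rbm14, an RNA-binding protein (0.372), against a median of 3.11. Glcci1 had rank 75 in the list of Umad1 and Umad1 rank 33 in that of Glcci1, at a distance of 0.702. The closest gene to Glcci1, Olfr1287, had 15 and 12 counts in TSSK2-IP and 0 and 0 in IgG-IP, so its place in this order rests on the prior count, and Olfr930 had 19 and 23 counts against 1 and 2.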

How the data were processed

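RNA libraries of 2 TSSK2-IP and 2 IgG-IP samples were analysed. The deposited values are raw counts per gene, which the authors made, per the labels, with Trimmomatic 0.39 for trimming, STAR 2.7.10a for alignment to GRCm38 and featureCounts 2.0.3 for counting, and did not normalize. The strand and overlap settings of the counting are not given in the sources used here, and were read from the table as described. Rows were matched to GENCODE vM21 by gene identifier (21817 of 21936 matched). This annotation is on the same build, but its gene models may differ from those used for counting. No data column was left unused.

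Genes kept by filterByExpr (14722) were fitted in edgeR 4.0.16 (R 4.3.3) with TMM, glmQLFit and glmQLFTest, at a common dispersion of 0.135. Genes were called at an absolute log2 fold change of at least 1 and a Benjamini-Hochberg adjusted p of at most 0.05. Each standard error was derived from the fitted log2 fold change and its F statistic. CPM are TMM-normalized, and likeness used log2 CPM with a prior count of 2. Tested on simulated data for this comparison (14722 genes, 200 of them changed 4-fold), the fit called 86 of the 200 and 6 others at that dispersion, and 194 and 4 others at a dispersion of 0.02. Each simulation is listed with a single dispersion, whereas the replicate SD of log2 differences was 0.22 in TSSK2-IP and 0.89 in IgG-IP. The simulated counts therefore do not give the power or the false calls for these libraries.

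The pair, the gene lists and the naming rule were chosen with earlier results of these data known. The rule named the pair, its FAM117 paralogs, the nearest neighbours and any with an unadjusted p under 0.05, all ESCRT-I genes, the 3 other ESCRT and the 3 glucocorticoid response genes with the smallest p in each direction with Nr3c1, and the 5 genes closest to each member. Genes named for overlap or adjacency fall outside it and were chosen after their values were seen. The alternatives were DESeq2 1.42.0, its size factors, upper-quartile normalization, no filter, at least 10 counts in every library, a replicate block, a test against a 2-fold change, the pair summed, and each library left out. A DESeq2 fit that first dropped genes at 0 in all libraries was added after the data were seen.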

Additional observations from a re-analysis of the deposited data

How the results depend on the processing

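Umad1 and Glcci1 kept a positive log2 fold change under every alternative. Umad1 stayed between 2.43 and 2.93, and Glcci1 between 3.01 and 3.37, or 2.84 for both counts summed into 1 feature. Fam117a ranged from 1.21 to 1.77 and Fam117b from -1.93 to -0.39 with each library left out. The number of genes called higher, 102, became 20 with upper-quartile normalization, 283 without a filter, 29 with at least 10 counts in every library, 32 in the test against a 2-fold change, and 6 with DESeq2 once genes at 0 in all libraries had been dropped, where DESeq2 on the full table called 139. With single libraries left out it ranged from 23 to 2755 (23 and 33 without TSSK2-IP replicates 1 and 2, 894 and 2755 without IgG-IP replicates 1 and 2). The number called lower, 0, became 24 without a filter and ranged from 0 to 2688 with single libraries left out (426 and 2688 without IgG-IP replicates 1 and 2). With single libraries left out, ESCRT genes called ranged from 0 to 3 higher and 0 to 6 lower, neighbouring genes from 0 to 2 higher and 0 to 1 lower, and glucocorticoid response genes from 0 to 4 higher. All of the calls in these lists came without an IgG-IP library, except 1 neighbouring gene called higher without a filter. The cause of these changes was not tested. Without IgG-IP replicate 1, 30 ESCRT, 7 neighbouring and 14 glucocorticoid response genes were among the 16620 genes tested. Without IgG-IP replicate 2 they were 30, 7 and 13 among 15406. Calls over all genes also rose in both fits, and 1 IgG-IP library stood alone. The calls within the lists are therefore not read as a feature of the lists.

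Libraries of the same replicate number deviated together only weakly (r = 0.126 across 14722 genes, 2 pairs), so the numbers are not shown to pair the samples. With the replicate block, log2 fold changes were 2.68 for Umad1 and 3.21 for Glcci1, and 274 genes were called higher and 3 lower. DESeq2's size factors moved the median log2 fold change of all genes from -0.02 to -0.14, and those of Umad1 and Glcci1 to 2.54 and 3.09. Of the limits of depth, the 13 and 17 counts of Glcci1 in IgG-IP are the tightest for the pair.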
